A study of Mus musculus with 2 samples.

Results

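The cells described here are haemoglobin-rich erythroid cells, the maturing red cell precursors that were captured along with the stroma of mouse long-bone marrow. They were chosen by their globin RNA: a cell barcode was a member when the adult globin genes Hbb-bs, Hbb-bt, Hba-a1 and Hba-a2 together made up at least 30% of its UMIs (unique molecular identifiers, 1 per captured RNA molecule) and mitochondrial transcripts made up at most 10%. No minimum number of genes was set. The rule gave 545 members among 47933 barcodes. Of these, 170 of 25635 came from the adult and 375 of 22298 from the old library. Because globin counts chose the members, their globin levels are a description, and all other genes are given as counts per 1000000 non-haemoglobin UMIs (CPM). UMI counts are not divided by transcript length, so levels are compared within a gene and not between genes.

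The series holds 2 libraries from long bones of wild-type C57BL6 mice, 1 from adult and 1 from old animals, and no treatment is named for either. Marrow was enzymatically dissociated, red cells were lysed with NH4Cl, blood-forming cells were depleted by magnetic separation, and live cells were sorted by flow cytometry into a 10x Chromium 3' v3.1 preparation. The labels call the sorted cells stromal. Age is given as a word only; how many mice were used, of which sex and whether they were pooled is not given in the sources used here. With 1 library per age, no test between ages is possible, and age and library cannot be told apart. Intervals below are 95% exact binomial (Clopper-Pearson) for shares and exact Poisson for counts, with log2 ratios bounded by the exact binomial split of the UMIs, and they cover counting error only.

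Red cells form from dividing erythroblasts that, under the transcription factors GATA1 and KLF1, build up haemoglobin while they lose their capacity to divide. The nucleus condenses and is expelled, and the reticulocyte that remains clears its mitochondria by autophagy and remodels its proteins through ubiquitin. Haemoglobin joins alpha-globin and beta-globin chains, each with a haem group whose synthesis starts with the erythroid enzyme ALAS2, and most other RNA is lost as globin RNA persists.

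The alpha-globin and beta-globin genes each have a pair of near-identical adult copies, so the division of their UMIs between copies is less certain than the sum. In the GENCODE transcripts the coding parts of Hbb-bs and Hbb-bt matched at 443 of 444 aligned positions (99.8%), and those of Hba-a1 and Hba-a2 at 428 of 429 (99.8%). The stretches after the stop codon, where 3' libraries read most, matched at 70.1% for the beta pair and 82.2% for the alpha pair. In the alpha pair these stretches had 74 and 90 bases, and all 74 of the shorter one matched. Its 82.2% thus reflects a difference in annotated length and no mismatch. The sources used here do not give how reads that fit both copies were assigned, so sums of each pair are the main values. The promoters of the 4 genes that define the cells, and of Alas2, a marker that the rule did not use, are shown because the cells are defined by the RNA of the first 4. Each is the 120 bases before the RefSeq transcription start (GRCm38.p6), 5' to 3' on the gene's own strand, with capitals marking matches on either strand to the CCAAT and TATAA words, to the CCNCNCCC word of the CACCC box, and to the GATA-factor words AGATAA and AGATAG and the same words with T as first base.
Hbb-bs, chr7:103827929-103828048, minus strand: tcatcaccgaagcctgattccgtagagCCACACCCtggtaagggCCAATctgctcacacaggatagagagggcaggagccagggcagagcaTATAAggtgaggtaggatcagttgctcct
Hbb-bt, chr7:103813924-103814043, minus strand: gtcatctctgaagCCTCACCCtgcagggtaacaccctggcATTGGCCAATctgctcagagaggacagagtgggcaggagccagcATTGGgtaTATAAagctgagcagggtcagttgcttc
Hba-a1, chr11:32283552-32283671, plus strand: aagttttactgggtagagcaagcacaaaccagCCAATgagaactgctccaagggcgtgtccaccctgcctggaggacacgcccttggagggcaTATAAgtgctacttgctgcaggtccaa
Hba-a2, chr11:32296372-32296491, plus strand: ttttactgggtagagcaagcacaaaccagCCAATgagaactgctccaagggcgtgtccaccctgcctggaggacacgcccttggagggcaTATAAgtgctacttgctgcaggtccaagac
Alas2, chrX:150547297-150547416, plus strand: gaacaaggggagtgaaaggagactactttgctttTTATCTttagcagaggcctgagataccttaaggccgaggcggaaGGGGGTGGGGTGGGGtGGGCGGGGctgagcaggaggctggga
Both beta-globin promoters held a CACCC box with the words CCAAT and also TATAA, both alpha-globin promoters held CCAAT and TATAA, and the Alas2 promoter held a GATA word and several overlapping CACCC matches. Over 32851 RefSeq promoters of the same length, 12.8% held a GATA word, 34.6% the CACCC word, 21.3% CCAAT and 11.8% TATAA. The printed stretches matched at 95.1% between the alpha copies and at 74.6% between the beta copies.

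Members made up 0.734% (0.628 to 0.852) of the 23165 adult barcodes within the mitochondrial limit and 1.90% (1.71 to 2.10) of the 19734 old ones. The share was 2.59 times higher in the old library (2.15 to 3.12). Lysis, depletion and the sort all act on this share, so a difference in the marrow and one in the preparation cannot be told apart. The mitochondrial limit removed 1 further adult barcode with at least 30% haemoglobin and no old one. The libraries shared 152 barcode sequences, and no barcode was a member in both.

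The label held against markers the rule did not use. At least 1 UMI of Alas2 was found in 99.4% of adult members and 98.7% of old members, against 2.5% and 1.74% of the other barcodes. Slc4a1, the band 3 anion exchanger of the red cell membrane, had a UMI in 74.7% of adult members and in 83.2% of old members, against 1.12% and 1.17% of the others. All 4 globin genes were detected in every member. The median depth was 7758.5 UMIs in adult and 7964 in old members, beside 6930.5 and 7306 for the other barcodes. Thinned to 500 non-haemoglobin UMIs each, 86.9% of 160 adult and 84.7% of 327 old members still held an Alas2 UMI. Of the first 2000 other barcodes listed with enough UMIs in each library, 0.35% and 0.15% did. The other barcodes held a median of 0.0155% haemoglobin UMIs in adult and 0.0185% in old. Members held 79.9% of all haemoglobin UMIs among the adult barcodes that were kept and 87.5% among the old.

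"Late" describes most members and not all. The haemoglobin share ran from 32.5% to 94.3% around a median of 73.6% in adult members and from 30.0% to 95.1% around 76.4% in old ones. At least 85% haemoglobin was reached by 41.8% of adult and 37.9% of old members. At the other end, members with 30 to under 50% haemoglobin still carried RNA of dividing cells, with Mki67, a proliferation marker, at 3129 CPM (adult) and 3007 CPM (old). The set therefore ranges from barcodes with RNA of dividing cells to barcodes with little RNA besides globin.

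**Figure D1:**
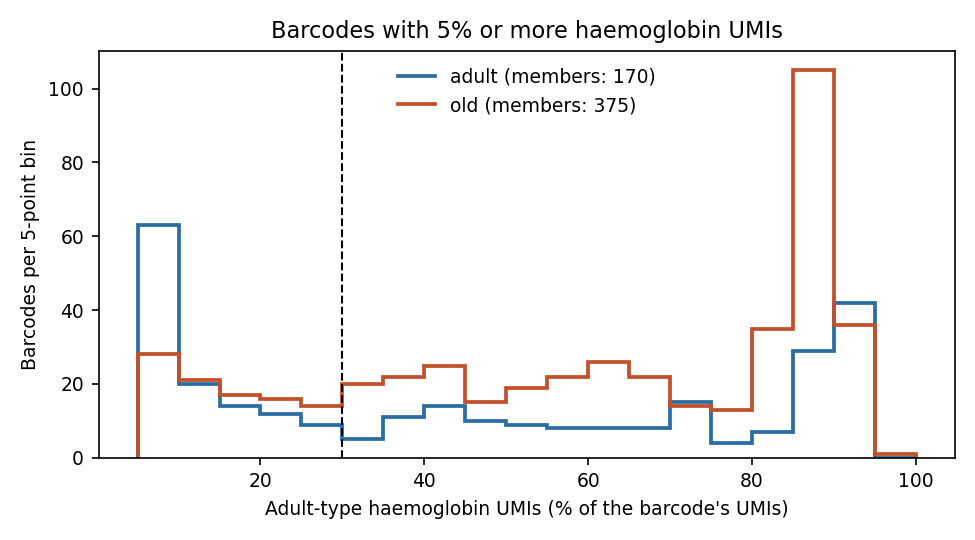
Number of barcodes (vertical axis) in each 5-point bin of the haemoglobin share of UMIs (horizontal axis, from 5% up), for the adult (blue) and old (red) libraries; the dashed line is the 30% threshold. Both libraries have a low plateau from 30% to 80% and a peak at 85% or more, and members number 170 in adult and 375 in old.

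Just outside the threshold, at 25 to under 30%, lay 9 adult and 14 old barcodes with median depths of 15360 and 12308 UMIs and medians of 3756 and 2746.5 genes. Just inside, at 30 to under 35%, lay 5 adult and 20 old members with medians of 9384 and 10177.5 UMIs and of 2181 and 2539 genes. The threshold cuts through a continuous range in both libraries.

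Members with higher haemoglobin shares held far fewer other RNA molecules and a moderately larger number of globin molecules. Members were split at 50% and 70% haemoglobin, which gave 40, 33 and 97 adult and 82, 89 and 204 old members. Median non-haemoglobin UMIs were 5260, 3071 and 852 across the 3 adult classes and 6091.5, 2829 and 923.5 across the old ones. Median haemoglobin UMIs were 3586.5, 4212 and 6689 in adult and 4288, 4785 and 6466.5 in old. Both differences went with a high share, and that in other RNA was the larger. Fewer transcripts per cell and lower capture cannot be told apart from these counts. Spearman's rho of the haemoglobin share was -0.84 with non-haemoglobin UMIs and 0.59 with haemoglobin UMIs over the 170 adult members. The same values were -0.79 and 0.40 over the 375 old members. These are descriptions only, since both counts enter the share and members of 1 library are not independent replicates.

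The number of genes per member was lower along the same axis, with medians of 2008.5, 1325 and 426 in adult and 2189, 1115 and 441.5 in old. Thinned to 500 non-haemoglobin UMIs, the medians were 378.5, 357 and 292.5 genes in adult and 387, 336 and 283 in old, with 10 adult and 48 old members too shallow to enter. At equal depth the range was narrower and the order the same in both libraries. A filter at 500 genes would remove 38.8% of adult and 38.7% of old members.

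**Figure D2:**
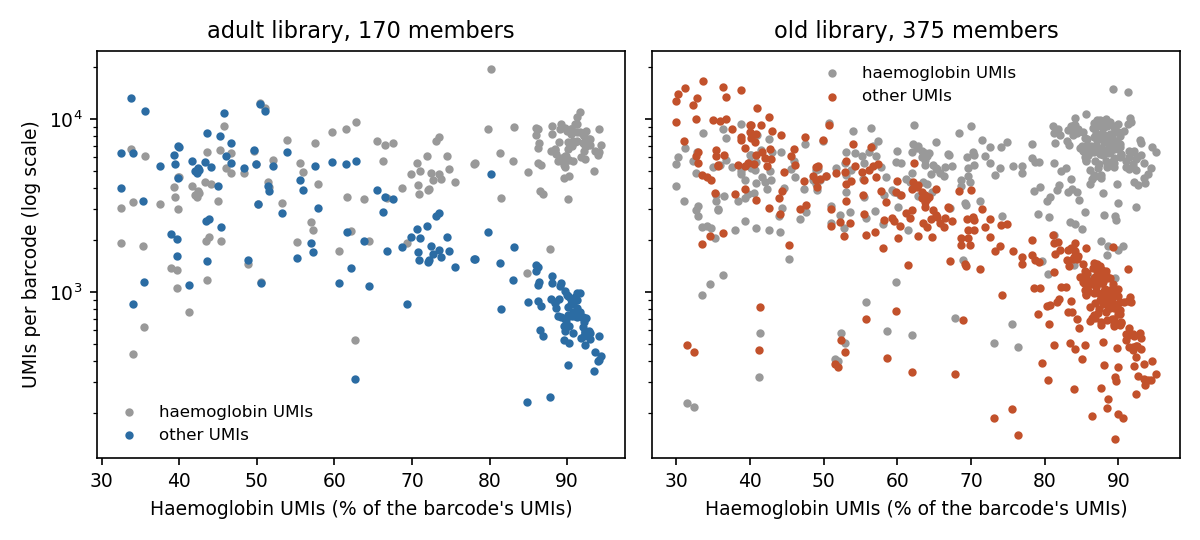
UMIs per member (vertical log axis) against the haemoglobin share of its UMIs (horizontal axis, %) for both libraries, with 1 point per member for haemoglobin UMIs (grey) and for all other UMIs (coloured). Median other UMIs are 5260 and 6091.5 at 30 to under 50% and 852 and 923.5 at 70% or more, while median haemoglobin UMIs differ by less than 2-fold.

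More beta-globin than alpha-globin UMIs were counted in both libraries. Adult members held 415501 alpha-globin and 548385 beta-globin UMIs, a ratio of 0.758 (0.755 to 0.761). The old ratio was 0.789 (0.787 to 0.791), from 899865 and 1140458 UMIs. The ratio was higher in each more haemoglobin-rich class, at 0.686, 0.710 and 0.787 in adult and 0.718, 0.727 and 0.831 in old. These are ratios of 3'-end counts, with no correction for capture of each transcript, and the globin counts themselves chose the members.

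Between the copies, Hbb-bt supplied 21.0% of adult and 20.2% of old beta-globin UMIs, and Hba-a2 supplied 43.1% and 40.7% of alpha-globin UMIs. The Hbb-bt share varied little over the 3 haemoglobin classes, at 21.3%, 20.1% and 21.1% in adult and 20.9%, 19.6% and 20.2% in old. The Hba-a2 share was higher in each richer class, at 39.5%, 42.1% and 44.1% in adult and 37.9%, 39.9% and 41.7% in old. After the stop codon the alpha copies differed in annotated length only, so this division is less certain.

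Barcodes with under 30% haemoglobin and UMIs of at least 4 of 9 erythroid genes (among them Klf1, Epor, Rhag, Slc4a1 and Alas2) show the same genes before the threshold. There were 135 in adult and 723 in old. Where haemoglobin was under 1% of UMIs, Hbb-bt made up 27.5% (24.7 to 30.4) of beta-globin UMIs in 63 adult and 45.5% (44.5 to 46.5) in 620 old barcodes, against 21.0% and 20.2% in members. The other barcodes of the adult and old libraries had Hbb-bt shares of 20.3% and 19.2%. The 2 sets under 1% differed in other ways: the median was 65713 UMIs and 0.0204% haemoglobin in the old barcodes and 16124 UMIs and 0.0914% in the adult ones. The stromal genes Col1a1 and Cxcl12 were at 6374 and 2232 CPM in the adult set and at 23.7 and 244.8 CPM in the old. The immunoglobulin gene Igkc was at 0 CPM in the adult set and 5002 CPM in the old. The part of these differences in the Hbb-bt share was not tested. The embryonic genes Hbb-y, Hbb-bh1 and Hba-x had 0, 2 and 1 UMIs in all adult members and 1, 9 and 7 in all old members, beside 415501 and 899865 adult-type alpha-globin UMIs. Hbq1b, a theta-globin gene, had 157 adult and 300 old UMIs.

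**Figure D3:**
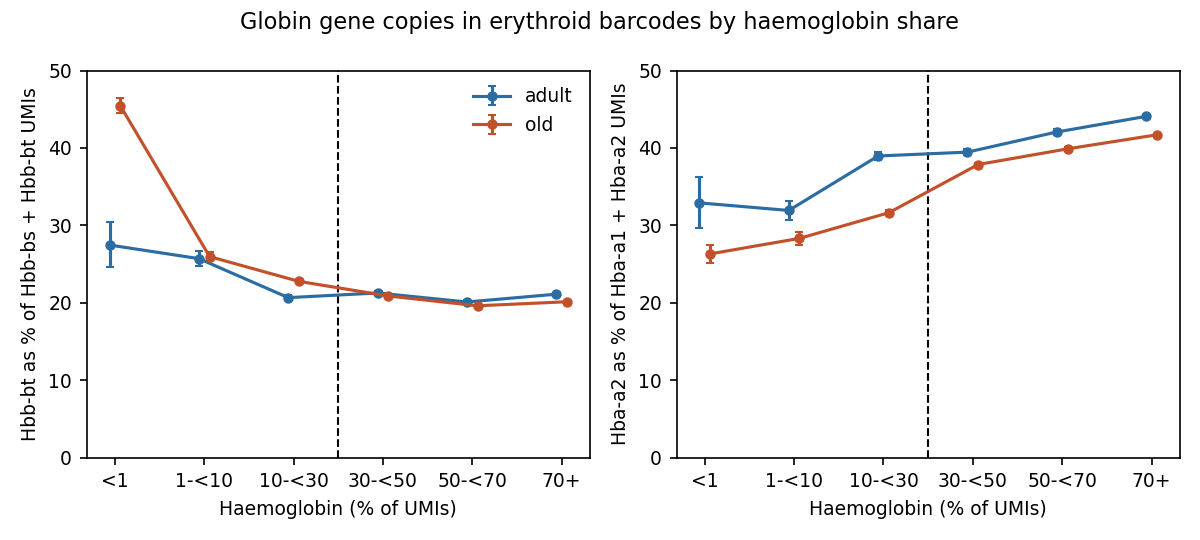
Share of beta-globin UMIs from Hbb-bt (left) and of alpha-globin UMIs from Hba-a2 (right), in %, by haemoglobin share of the barcode, with 95% exact binomial intervals for counting error; points left of the dashed line are erythroid barcodes under the 30% threshold. Hbb-bt starts at 45.5% in old and 27.5% in adult barcodes and lies near 20% in members, while Hba-a2 is higher in the members of both libraries.

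Across haemoglobin classes, ubiquitin remodelling and organelle clearance genes were higher and cell division genes lower in both libraries. Most other lists of red cell maturation held genes of both kinds. A gene was called apart when it had at least 50 UMIs and 50 CPM in the class where it was higher and differed at least 2-fold between members with 70% or more and with 30 to under 50% haemoglobin. In adult members 129 of 792 genes compared were higher (16.3%) and 319 lower (40.3%) in the richer class. In old members 181 of 2154 were higher (8.4%) and 1306 lower (60.6%). Median log2 ratios over all genes compared were -0.59 in adult and -1.24 in old. The poorest class held 203574 adult and 547714 old non-haemoglobin UMIs, against 100633 and 203821 in the richest. A gene thus reached 50 UMIs at a lower CPM in the poorest class, and more genes could enter as lower than as higher. These medians and shares are therefore set in part by the minimum, in each library to its own degree. The counts of each list are read against these shares. Of 782 genes compared in both libraries, 116 were higher in both, which is 116 of the 126 adult and of the 136 old genes. Lower in both were 270, of 314 adult and 362 old.

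Ubiquitin remodelling genes had one of the highest ratios between classes of any list. Their summed level was 8119.9, 15367 and 53601 CPM over the 3 adult classes and 9096, 21945 and 50427 CPM over the old ones, 6.60 and 5.54 times higher at 70% or more than at 30 to under 50%. In adult 7 of 11 genes compared were at least 2-fold higher and 1 lower, and in old 7 of 13 and 2. The shares over all genes were 16.3% higher and 40.3% lower in adult and 8.4% and 60.6% in old. Ubb, which encodes ubiquitin itself, went from 2289 to 24157 CPM in adult and from 2154 to 15950.3 CPM in old. Mkrn1, a ubiquitin ligase, went from 1223 to 15919 CPM and from 1864 to 16161 CPM. The E2 enzyme Ube2l6 was at 609.1 and 4541 CPM in adult and at 653.6 and 5225 CPM in old.

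The other list with such a ratio was organelle clearance, whose sums were 6.44 times higher in adult and 5.59 times in old. Bnip3l, the receptor that directs mitochondria to autophagy in reticulocytes, was at 618.9, 1485 and 6151 CPM in adult and 671.9, 1999 and 6354 CPM in old. The autophagosome genes Map1lc3b and Gabarapl2 stood at 4343 and 4581 CPM in the richest adult class, against 623.9 and 496.1 CPM in the poorest. In all, 3 of 4 adult and 4 of 6 old genes compared were at least 2-fold higher, beside 16.3% and 8.4% over all genes. In this list 0 were lower, beside 40.3% and 60.6% over all genes. Mitochondrially encoded transcripts were not lower with it: they made up 1.83%, 2.72% and 2.67% of non-haemoglobin UMIs in adult and 1.69%, 2.20% and 2.82% in old.

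Haem synthesis genes differed in both directions, and their sum was 2.64 times higher in the richest adult and 2.85 times in the richest old class. The first and last steps were higher, with Alas2 at 1366, 2415 and 10196 CPM in adult and 1831, 3617 and 12285 CPM in old. Fech, which inserts iron into the ring, was at 1041 and 3140.1 CPM in adult and at 1201 and 3837 CPM in old. Cpox and Alad, which act between them, were lower. Cpox, coproporphyrinogen oxidase, went from 1115 to 308.1 CPM and from 1203 to 235.5 CPM. Alad, the second enzyme of the pathway, went from 486.3 to 129.2 CPM and from 496.6 to 78.5 CPM. In all, 2 of 6 adult genes compared were higher and 2 lower, and 3 of 8 old genes were higher and 3 lower, beside 16.3% higher and 40.3% lower over all adult genes and 8.4% and 60.6% over all old genes. With so few genes, the adult count lower is near the share over all genes.

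Among iron and haem transport genes, 5 of 11 adult genes compared were at least 2-fold higher and 2 lower, and 6 of 14 old genes were higher and 6 lower. Beside these stand 16.3% higher and 40.3% lower over all adult genes, and 8.4% and 60.6% over all old genes. The mitochondrial carrier gene Slc25a39 and Slc48a1, a haem transporter gene, were at 3021 and 874.5 CPM in the richest adult class, against 461.7 and 83.5 CPM in the poorest. Tfrc, the transferrin receptor, was at 928.4 and 655.8 CPM in adult and at 1313 and 593.7 CPM in old, poorest and richest class in turn. The Tfrc difference was at least 2-fold in old and less than that in adult. Ferritin light chain (Ftl1) was at 12441 and 13904 CPM in the richest adult and old class, against 3463 and 3389 CPM in the poorest.

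Of the gas transport and metabolism genes compared, 1 of 3 was higher and 0 lower in adult, and 2 of 6 were higher and 1 lower in old. Over all genes 16.3% were higher and 40.3% lower in adult, and 8.4% and 60.6% in old. Within this list Bpgm differed widely. It makes 2,3-bisphosphoglycerate, which lowers the oxygen affinity of haemoglobin, and it went from 987.4 through 3089 to 18235 CPM in adult and from 1148 through 3331 to 15666 CPM in old. Car2, a carbonic anhydrase, differed less, at 5904 and 8794 CPM in adult and 5839 and 12462 CPM in old. Gpx1, a peroxide-removing enzyme, was at 6312 and 25807 CPM in adult and at 4968 and 26126 CPM in old. In its list, haemoglobin chaperone and peroxide defence, 2 of 7 genes compared were higher and 2 lower in adult. In old 4 of 9 were higher and 2 lower.

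Of the membrane and skeleton genes compared, 3 of 23 were higher and 10 lower in adult, near the 16.3% and 40.3% over all genes. In old 5 of 25 were higher and 11 lower, beside 8.4% and 60.6% over all genes. The old sum was highest in the middle class, at 40171 CPM, beside 21687 and 31297 CPM in the poorest and richest. Epb41, protein 4.1, was higher at 4164 against 2132 CPM in adult and 8419 against 2430.1 CPM in old. Rhag, the Rh-associated glycoprotein, was lower at 228.6 against 535.4 CPM and at 279.7 against 863.6 CPM. Of the erythroid transcription factor genes compared, 2 of 11 were higher and 6 lower in adult, and 1 of 15 was higher and 9 lower in old. These counts too were not far from the shares over all genes. Klf1 and, in old, Gata1 were among the lower ones. Klf1 went from 427.4 to 69.6 CPM in adult and from 193.5 to 24.5 CPM in old, and Gata1 in old from 122.3 to 19.6 CPM. In adult Gata1 had too few UMIs to be compared. Of 10 nuclear condensation and enucleation genes compared, 2 were higher and 6 lower in adult and 2 higher and 5 lower in old, not far from the shares over all genes. Examples were Xpo7, a nuclear exportin, at 776.1 and 3299 CPM in adult and 1026 and 3130.2 CPM in old, and Lmnb1, a nuclear lamina gene, at 299.6 and 39.7 CPM and at 210.0 and 19.6 CPM.

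Division genes were lower in the richer class. S phase genes summed to 3998.6 CPM in the poorest and 318.0 CPM in the richest adult class and to 2153 and 363.1 CPM in old, with 6 of 6 adult and 8 of 8 old genes compared at least 2-fold lower. G2 and mitosis genes summed to 17473 and 5833 CPM in adult and to 12541 and 3636 CPM in old, with 10 of 13 and 15 of 17 lower. Over all genes 40.3% were lower in adult and 60.6% in old. Of 12 progenitor genes 1 had enough UMIs to be compared between classes. Kit, the stem cell factor receptor, had 0 UMIs in adult members, an exact Poisson upper limit of 8.75 CPM, and 22 UMIs (21.5 CPM) in old members.

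**Figure D4:**
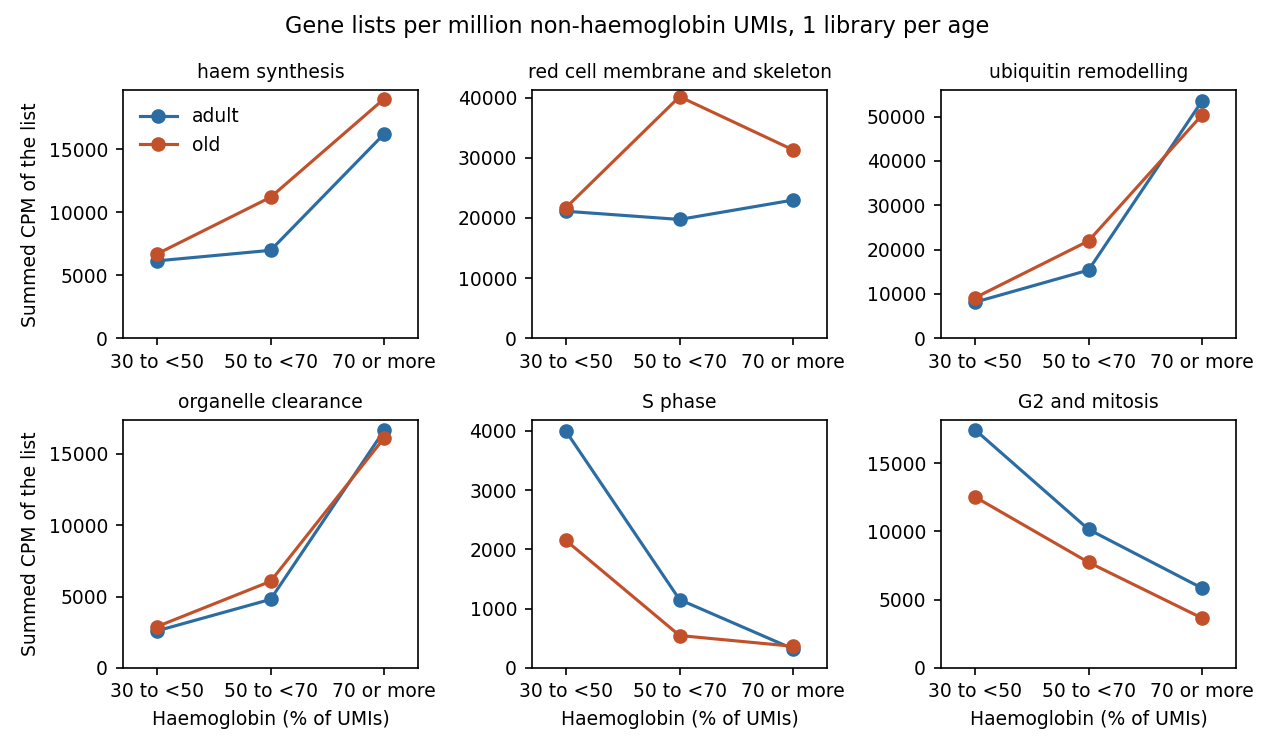
Summed CPM of 6 gene lists (vertical axes, from 0) in members with 30 to under 50%, 50 to under 70% and 70% or more haemoglobin UMIs, for the adult (blue) and old (red) library; there is 1 library per age and no error bar. Ubiquitin remodelling and organelle clearance are more than 5-fold higher in the richest class, and S phase and G2 and mitosis are lower, in both libraries.

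Pooled RNA of other cell types was higher with the haemoglobin share and stands beside these results, while single types went both ways. Markers of 12 other cell types (74 genes) made up a median of 0.631%, 0.952% and 1.87% of non-haemoglobin UMIs in the adult classes and 0.787%, 1.08% and 2.79% in the old ones. Osteolineage markers (7 of 7 detected) summed to 6920 CPM for adult and 1955 CPM for old members, below the 46024 and 8709 CPM of the other barcodes. Markers of CXCL12-abundant reticular mesenchymal cells (7 of 7 detected) summed to 6466 and 6908 CPM. From the poorest to the richest class these mesenchymal markers went from 6867 to 4710 CPM in adult and from 9038 to 3469 CPM in old. Osteolineage markers went the other way, from 5462 to 11229 CPM in adult and from 2028 to 2458 CPM in old. Plasma cell markers divided the libraries, with 5 of 6 genes at 0 in adult members: Igkc, the kappa light chain, had 0 UMIs in adult members and 8913 CPM in old members, every one of which had a plasma cell marker UMI. In the other barcodes Igkc was at 79389.7 CPM in old against 1.73 CPM in adult. T or NK and basophil or mast cell markers were at 0 in adult members for 5 of 5 and 4 of 4 genes. In 3 adult and 29 old members the 12 lists together made up at least 5% of non-haemoglobin UMIs, up to 32.8% in 1 old member. Neutrophil markers summed to 78.3 CPM for adult and 3289.7 CPM for old members, and in 1 old member they made up 22.3% of its non-haemoglobin UMIs. The part of other cells' RNA in the class differences was not tested.

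Between the ages, few genes of the erythroid lists passed 2-fold, and a small set of genes stood apart. A total of 2562 genes were compared over all members, with the same limits and a 2-fold difference. In old members 159 were higher (6.21%) and 83 lower (3.24%). The median log2 ratio of old over adult was 0.14, with 1686 genes above 0 and 876 below. Adult members held 421409 non-haemoglobin UMIs and old members 1024715. A gene higher in old thus reached the minimum number of UMIs at a lower CPM, and more genes could enter as higher than as lower. The median, the tally of signs and the 2-fold counts are therefore set in part by the minimum. A list median near 0.14 is no shift, and counts of genes above 0 are read against the tally of 1686 and 876. Scaled by the median over all genes, 118 genes were higher and 125 lower, so the surplus of higher genes depends on the scaling as well. Many of these genes were lower in members than in their surroundings: 74 of the 159 higher and 49 of the 83 lower genes had a lower level in members than in the other barcodes. Among 760 genes at least 2-fold above the other barcodes in both libraries, 30 were higher (3.95%) and 26 lower (3.42%) in old members. This split was chosen after the data were examined.

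The largest of these differences among named genes lay in the apolipoprotein L family, a multigene family whose close copies can share reads. Apol11b had 122 UMIs in 36 of 170 adult members and 1888 UMIs in 232 of 375 old members. Its level was 289.5 CPM (240.4 to 345.7) in adult and 1842 CPM (1760.3 to 1927) in old, 6.36 times higher, a log2 ratio of 2.67 (2.41 to 2.95). The same order held in each haemoglobin class, at 186.7, 247.4 and 546.5 CPM in adult and 1028, 2317 and 3395 CPM in old.

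The order was the same at equal depth. Thinned to 500 non-haemoglobin UMIs, 13.8% (8.82 to 20.1) of adult and 50.2% (44.6 to 55.7) of old members held an Apol11b UMI, against 21.2% and 61.9% unthinned. In the other barcodes its level was 0.0602 CPM (adult) and 0.457 CPM (old), far below the members of either library. Over the 13 alternative settings applied to named genes the log2 ratio stayed between 2.46 and 2.85. Apol11a followed, at 30.8 CPM (adult) and 284.0 CPM (old), with 13 and 291 UMIs. Apol10a was at 11.9 and 86.9 CPM, from 5 and 89 UMIs. Apol8, another family member, was under the minimum, at 113.9 CPM from 48 UMIs in adult and 102.5 CPM from 105 UMIs in old.

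Ubiquitin remodelling genes were near the background between ages, with a list median log2 of 0.18, and Ube2o was the 1 gene of 15 past 2-fold. It encodes the E2/E3 enzyme that tags ribosomes and other proteins for removal in reticulocytes. Its level was 1656 CPM in old against 735.6 CPM in adult, a log2 ratio of 1.17 (1.0 to 1.35). It was higher in old in each class, at 329.1, 657.0 and 1649.6 CPM in adult and 591.5, 1973 and 4092 CPM in old. Thinned members of the richest class held a Ube2o UMI in 52.3% (41.4 to 63.0) of adult and 86.7% (80.5 to 91.5) of old cases. Ubb went the other way, at 8476 CPM in adult members and 5714 CPM in old ones, a log2 ratio of -0.57 (-0.63 to -0.51).

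In the membrane and skeleton list, 21 of 25 genes compared were above 0 and 4 below, 1 was at least 2-fold higher and 0 lower, and the median was 0.35, beside 1686 of 2562 above 0 over all genes. Tmcc2, a transmembrane and coiled-coil protein gene expressed late in the lineage, was at 1372 CPM (adult) and 2984 CPM (old), a log2 ratio of 1.12 (0.99 to 1.25). Its difference lay mostly in the middle class, at 1527 against 6186 CPM, and at 70% or more the levels were 2534 and 3012 CPM, a log2 ratio of 0.25. Slc4a1 was at 4125 CPM in old against 2454 CPM in adult, and Epb41 at 2705 and 4730.1 CPM. Rhd, the Rh blood group antigen, was lower in old, at 1425 against 1965 CPM.

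Haem synthesis was slightly higher in old for 8 of 8 genes, with log2 ratios from 0.16 to 0.49 and a median of 0.27, and 0 passed 2-fold. Alas2 was at 3766 CPM in adult members and 4387 CPM in old ones, a log2 ratio of 0.22 (0.14 to 0.30). Both values are close to the median of 0.14 over all genes. Organelle clearance had a median of 0.00, with 4 genes above and 3 below 0, and Bnip3l was at 2181 and 2156 CPM. Iron and haem transport had a median of 0.09 with 0 of 14 genes past 2-fold, and Tfrc was at 804.4 and 1336 CPM. Red cell metabolism and gas transport lay further from the background by its list median, but its summed level differed little. Its median was 0.62, with 8 of 9 genes above 0, 1 below and 2 at least 2-fold higher. Those were Hk1 and Car1, both with few adult UMIs. Hk1 had a log2 ratio of 1.34 from 27 adult and 166 old UMIs, and Car1 had 1.46 from 10 and 67. Summed over the 19 listed genes, adult members reached 13241 CPM, and the sum for old members was 14138. The list median lay between 0.14 and 0.68 over the 13 alternative settings, so its lower end was near the median over all genes.

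Histone genes formed the other side of the age comparison. All 27 that could be compared had a log2 ratio below 0, 10 were at least 2-fold lower in old, and the median was -0.88, against 3.24% of genes lower over all genes. They were not a list fixed at the start but were grouped after their values were seen. Their sum was 25401, 9531 and 3627 CPM over the adult classes and 11533, 6077 and 1094 CPM over the old ones, so it was lower in old in each. H2ac24 was at 1075 CPM (adult) and 342.5 CPM (old), a log2 ratio of -1.65 (-1.86 to -1.45). The linker histone gene H1f1 was at 291.9 and 99.5 CPM. Transcripts of replication-dependent histone genes mostly lack a poly(A) tail, and the kit captures poly(A) RNA, so these counts cover only the part that was captured.

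S phase genes were lower in old for 6 of 6 genes compared, with a median of -0.92. At least 2-fold lower were 2 of 6, beside 3.24% over all genes. But with the haemoglobin threshold at 20%, which gives 191 adult and 405 old barcodes, the median was 0.34. Rrm2, a subunit of ribonucleotide reductase, was at 227.4 CPM in old against 465.1 CPM in adult. Tyms, thymidylate synthase, was at 242.0 and 92.7 CPM over all members, but at 29.8 and 39.3 CPM in members with 70% or more haemoglobin. G2 and mitosis genes had a median of -0.27, with 13 of 16 below 0 and 1 at least 2-fold lower, but the median was 0.14 with the threshold at 20%. Top2a was at 925.5 CPM in adult members and 491.8 CPM in old ones, while Mki67 was at 1903 and 2155 CPM. Division genes therefore did not all differ in one direction. The share of members in the poorest class, which holds most of this RNA, was 23.5% (17.4 to 30.6) in adult and 21.9% (17.8 to 26.4) in old. Levels over all members weigh each class by its UMIs. That class held 203574 of 421409 adult and 547714 of 1024715 old non-haemoglobin UMIs, a larger part in old.

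**Figure D5:**
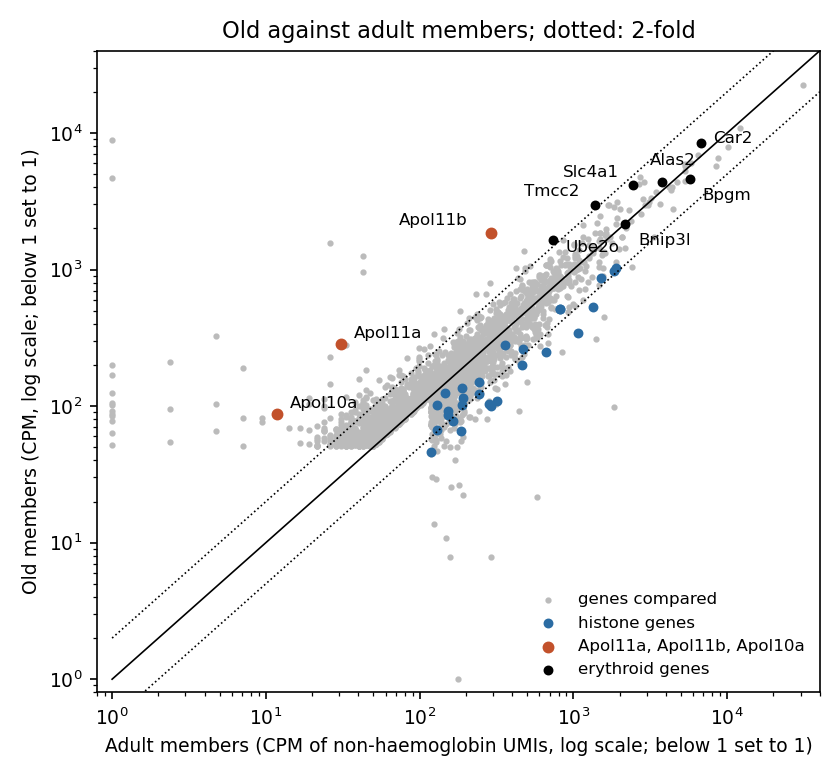
Level in old members (vertical log axis, CPM) against level in adult members (horizontal log axis, CPM) for the 2562 genes compared, with values below 1 drawn at 1; the solid line marks equal levels and the dotted lines 2-fold. Apol11b, Apol11a and Apol10a (red) lie above the upper dotted line, the 27 histone genes (blue) lie below the solid line, and of the erythroid genes (black) Tmcc2 and Ube2o lie above the upper dotted line.

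In the haem-regulated stress response, in which the kinase encoded by Eif2ak1 slows translation when haem is short, 5 of 5 genes were above 0 with a median of 0.71, against -0.020 within members with 70% or more haemoglobin. Asns, asparagine synthetase, had 17 UMIs in adult and 123 in old, a log2 ratio of 1.57 (0.84 to 2.40), and Eif2ak1 was at 514.9 and 815.8 CPM. At 70% or more haemoglobin Eif2ak1 was at 546.5 and 574.0 CPM, so that class did not carry the difference. Targets of erythropoietin signalling included Pim1, a survival kinase gene, at 481.7 CPM (adult) and 978.8 CPM (old), with 636.0 and 608.4 CPM in the richest class. Cish, a feedback inhibitor of the same pathway, had 7 and 71 UMIs. Epor, the receptor, was lower in old at 73.2 against 123.4 CPM, and Klf1 at 164.9 against 277.6 CPM.

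MHC class I genes were above 0 for 7 of 7 genes compared, with a median of 0.70. Within members with 70% or more haemoglobin the median was -0.11. At least 2-fold higher were 2 of 7, beside 6.21% over all genes. H2-K1 was at 711.9 CPM for adult and 1156 CPM for old members, and at 1641 and 2243 CPM in the other barcodes, so levels in members lay below those of their surroundings in both libraries. Immediate early genes were below 0 for 9 of 11, with a median of -0.68. Of these 11, 2 were at least 2-fold lower, beside 3.24% over all genes. Their median lay between -0.85 and -0.41 over the 13 alternative settings. Fos was at 1158 CPM for adult and 596.3 CPM for old members, and at 2295 and 1302 CPM in the other barcodes. The part of other cells' RNA in both lists was not tested. Slpi, a secreted protease inhibitor, had the highest ratio of the named genes with UMIs in both libraries, at 42.7 and 1259 CPM, and in the other barcodes it was at 24.3 and 7758 CPM.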

How the data were processed

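The authors deposited raw UMI counts for each library, as a matrix with its gene and barcode lists. Cell Ranger and GRCm39 are named by the submitters' processing notes, and version 7.0.1 is per the file headers. Which annotation release and barcode filter were used is not given in the sources used here. No barcode was below 500 UMIs. Depth was 208637421 UMIs in adult and 229917243 in old, and members held 421409 and 1024715 non-haemoglobin UMIs.

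Counts were read with scipy 1.17.1 and summed over members per gene and library. Haemoglobin genes were left out of the totals. No doublet caller was run. Members rich in other cells' RNA were left out as an alternative instead. For a gene at 0 in 1 library, a floor of 3 counts per library was used. Samples were grouped by the age label. Of 13 listed chaperone and peroxide genes 12 were found in the files. The calling step was tested on simulated data before use.

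Named genes were, by rule, the 10 with most UMIs per library, the 10 highest and 10 lowest ratios between ages, and between haemoglobin classes in the old library, with at least 100 UMIs and 100 CPM, up to 4 per list, and a fixed set of erythroid genes. Mitochondrial, ribosomal, immunoglobulin and predicted genes and markers of other cells were left out of the ratio ranks. The members, the 21 lists and the rule were chosen with earlier results of these data known, and histone and Apol genes were grouped after their values were seen. Alternatives changed the thresholds, the scaling and the members used. Promoters came from RefSeq (GRCm38.p6) and globin transcripts from GENCODE, and no gene positions of the files' build were used. Some listed genes are not reported here.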

Additional observations from a re-analysis of the deposited data

Results flagged for a closer look

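Opposite directions in the 2 libraries along the haemoglobin axis were found for Mgp and Sparc, out of 782 genes compared in both. Mgp, matrix Gla protein, had a log2 ratio of members with 70% or more over 30 to under 50% haemoglobin of 1.29 in adult and -1.15 in old. Sparc, a bone matrix protein gene, had 1.02 in adult and -1.13 in old. Their levels in the other barcodes were 1366 and 3156 CPM for Mgp and 10655 and 1471 CPM for Sparc, adult and old in turn, which are above those of the members. The difference between the libraries was not tested.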

How the results depend on the processing

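Results were recomputed under 17 settings, 14 planned and 3 added after the data were examined. With the haemoglobin threshold at 20% the alpha to beta ratios were 0.749 and 0.782 (adult and old) and 144 genes were lower in old. At 50% the shares of members were 0.561% and 1.48% and the ratios 0.771 and 0.804. The old share was 1.68% with no mitochondrial limit and 2.10% with a limit of 5%. With at least 500 genes per barcode the shares were 0.464% and 1.21% and the ratios 0.720 and 0.767. Without members with 1% or more RNA of other cell types, which left 56 adult and 89 old members, the shares were 0.242% and 0.451%, the share ratio 1.87, the alpha to beta ratios 0.690 and 0.702, and 34 genes were lower in old. Genes higher and lower in old numbered 37 and 13 with a minimum of 200 UMIs and 200 CPM, 744 and 532 with a minimum of 10, 48 and 24 at 3-fold, 69 and 42 over all UMIs, 40 and 23 within 70% or more haemoglobin, and 30 and 26 among genes above the other barcodes. Scaled by the median ratio, 125 were lower.

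Among named genes past 2-fold, the old over adult direction turned in 4 cases. H2-Q7 had a log2 ratio of -0.25 with each barcode weighted alike and -0.52 at 70% or more haemoglobin. In that same class Pim1 had -0.064 and Tyms 0.40. The causes were not tested. Of these 38 genes, 35 turned under none of the settings that gave them a value, which were 11 to 13 per gene. List medians below or above 0 in every setting that gave a value were those of haem synthesis, membrane, transcription factors, ubiquitin remodelling, metabolism, immediate early and ribosomal protein genes. The median over all genes was itself above 0, at 0.062 to 0.26, in every setting except the one scaled by it. A list median that stays above 0 is thus no shift by itself. The medians of the other 13 lists turned in 1 to 5 settings. Those of S phase (0.34) and of G2 and mitosis (0.14) turned at a threshold of 20%, those of the stress response (-0.020) and MHC class I (-0.11) at 70% or more haemoglobin, and that of erythropoietin signalling (-0.012) with each barcode weighted alike.

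No paired analysis was possible because each age has 1 library. The share ratio, the gene counts and the ratios rest on 1 library per age, and members with 70% or more haemoglobin hold only 100633 adult and 203821 old non-haemoglobin UMIs, so genes under the minimum could not be compared there. Differences between mice, preparations and ages cannot be told apart.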

Other observations

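Outside the naming rule, and picked after the values were seen, the predicted gene Gm32051 had 3 UMIs in 3 adult members and 194 UMIs in 113 old members, or 7.12 and 189.3 CPM. In the other barcodes its levels were 0.151 CPM (adult) and 0.435 CPM (old). Another predicted gene, Gm20161, was at 40.3 CPM in adult members and 158.1 CPM in old ones. The thromboxane synthase gene Tbxas1 was at 106.8 and 262.5 CPM.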
